A study of Mus musculus with 10 samples.

Results

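A set of 40 genes of the endoplasmic reticulum (ER), covering protein translocation, folding and the unfolded-protein response, was examined in GUCY2Chi and GUCY2Cmed cells of the mouse small intestine. The members were picked by name for their function, and all 40 were found among the 54532 genes of the count table. They comprised 2 proteins of the signal recognition particle, 5 proteins of the Sec61 channel and its helpers, 4 translocon-associated proteins, 5 signal peptidase subunits, 9 chaperones and co-chaperones, 4 disulfide isomerases, 4 stress sensors, 5 stress transcription factors and 2 degradation genes. RNA came from 5 mice of the CD1/ICR strain, 10 weeks old and matched by litter, which carried GFP under the control of the Gucy2c promoter (Gucy2c-GFP) and had no other stated allele or treatment. GUCY2C is the epithelial receptor for guanylin, uroguanylin and the drug linaclotide. Cells were sorted by GFP, so the groups rest on reporter brightness, and 20000 cells of each mouse went into each of 10 libraries, 5 GUCY2Chi and 5 GUCY2Cmed, the latter standing for the bulk epithelium. Libraries are named here by the numbers 2, 7, 12, 14 and 15 in their labels, taken as the mice, and values by library follow that order.

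The ER is where secreted and membrane proteins enter the secretory route. The signal recognition particle brings ribosomes to the Sec61 channel, signal peptidase trims the signal sequence, and chaperones and disulfide isomerases fold the chain. When unfolded chains accumulate, 3 classes of sensor respond: IRE1 (Ern1 and its epithelial form Ern2) splices Xbp1 mRNA, PERK (Eif2ak3) slows translation and favors ATF4 and CHOP (Ddit3), and ATF6 travels to the Golgi, where it is cut to release a transcription factor. Enteroendocrine cells load this route with peptide hormone precursors, whereas absorptive enterocytes load it with brush border enzymes and lipoproteins. Gene counts measure the total mRNA of these genes. They measure neither the splicing of Xbp1 nor the cleavage of ATF6, nor phosphorylation of the kinases.

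Libraries held 10903958 to 15307932 counts. Gucy2c itself was 1531, 1750.3, 1019.7, 1756 and 548 cpm (read counts relative to library size, scaled by TMM factors) in the GUCY2Chi libraries and 483, 385, 322, 374 and 455 cpm in the GUCY2Cmed libraries. Enteroendocrine markers fitted the GUCY2Chi label, since 18 of 19 were higher there and their summed level was 44412 to 175495 cpm against 158 to 588 cpm in GUCY2Cmed cells. Of 13 enterocyte markers, only 1 was lower in GUCY2Chi cells at the threshold and 0 were higher, with a median log2 fold change of −2.42. Their summed level was 3772, 2719, 28349, 3615 and 29211 cpm in the GUCY2Chi libraries and 51086 to 70061 cpm in the GUCY2Cmed libraries. GUCY2Chi libraries 12 and 15 therefore held more RNA of these markers than the other 3. They also held more mitochondrial transcripts (1.96% and 2.33% of counts, against 0.524% to 0.777%). Some results are also given without both, a setting added after the data were seen. Both lie nearest to the GUCY2Cmed libraries for each member past the threshold. Their removal therefore widens those differences and is no independent check of them. In these bulk samples, fewer cells of a type and less RNA per cell cannot be told apart. Goblet markers summed to 3074 to 23555 cpm in GUCY2Chi and 4947 to 13147 cpm in GUCY2Cmed libraries, and Paneth markers to 6157 to 45577 cpm and 6513 to 15317 cpm, with 0 of 16 tested genes of these secretory types past the threshold. The 11 plasma and B cell markers, another cell type rich in ER, summed to 1.45 to 6.66 cpm in all 10 libraries.

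Promoter sequence was looked up for the members because ATF6 and XBP1 are known to act through the ER stress response element (ERSE), in which CCAAT and CCACG boxes stand 9 bases apart. RefSeq promoter windows (GRCm38.p6, 250 bases before to 50 after the start) matched 32 of the 40 members, all but Sec61a1, Ssr2, Spcs3, Sec11c, Manf, Ern2, Atf6 and Creb3l1. Exact matches to both boxes at this spacing, on either strand, stood in the windows of 7 members (21.9% of 32), against 37 of 27025 genes (0.137%) with a window of the same length. Members were picked by function, with genes of the unfolded-protein response among them. Their shares, here and for the elements below, are therefore not independent of the choice and test nothing. These matches are shown with the ERSE boxes in capitals, each read 5′ to 3′ on the strand given.
Hspa5, chr2:34772025-34772043, plus strand: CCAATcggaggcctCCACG
Calr, chr8:84847075-84847093, plus strand: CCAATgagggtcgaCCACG
Hsp90b1, chr10:86705638-86705656, minus strand: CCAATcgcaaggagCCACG
Hsp90b1, chr10:86705533-86705551, plus strand: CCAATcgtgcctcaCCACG
Canx, chr11:50325800-50325818, minus strand: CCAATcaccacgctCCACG
Pdia6, chr12:17266491-17266509, plus strand: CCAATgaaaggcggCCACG
Dnajc3, chr14:118937827-118937845, plus strand: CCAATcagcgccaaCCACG
Creld2, chr15:88819520-88819538, minus strand: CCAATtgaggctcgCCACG
Hsp90b1 carried 2 matches on opposite strands, 212 to 194 and 107 to 89 bases before its start, and that of Hspa5 lay 65 to 47 bases before the start. The related ERSE-II, in which ATTGG and CCACG boxes stand 1 base apart and the CCACG box is shared with the ERSE, was matched in Herpud1 alone among the members and in 12 of all genes (0.0444%). Its fixed letters are in capitals.
Herpud1, chr8:94386377-94386387, plus strand: ATTGGgCCACG
The UPRE core TGACGTGG and the CRE TGACGTCA, which share their first 6 letters, were in none of the 32 windows and in 193 (0.714%) and 549 (2.03%) of all genes. A CARE, TGATGNAA, the kind of element ATF4 is known to bind, was matched in Herpud1 alone among the members and in 1219 of all genes (4.51%). Whole windows are shown for the 2 leading ER chaperones, Hspa5 (BiP) and Hsp90b1 (GRP94), to place the ERSE boxes (capitals, on either strand) within them.
Hspa5, chr2:34771840-34772139, plus strand: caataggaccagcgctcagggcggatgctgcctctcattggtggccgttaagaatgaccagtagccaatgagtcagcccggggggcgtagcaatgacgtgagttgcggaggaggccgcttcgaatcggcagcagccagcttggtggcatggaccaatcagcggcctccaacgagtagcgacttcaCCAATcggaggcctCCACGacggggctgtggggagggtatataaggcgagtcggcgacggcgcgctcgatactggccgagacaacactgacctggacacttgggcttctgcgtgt
Hsp90b1, chr10:86705395-86705694, minus strand: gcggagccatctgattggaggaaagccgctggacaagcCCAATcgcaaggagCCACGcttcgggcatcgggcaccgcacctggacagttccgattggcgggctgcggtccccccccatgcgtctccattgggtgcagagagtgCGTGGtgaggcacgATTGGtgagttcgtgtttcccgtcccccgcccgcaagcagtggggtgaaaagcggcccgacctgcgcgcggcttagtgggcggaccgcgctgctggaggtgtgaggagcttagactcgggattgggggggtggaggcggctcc
A match describes the letters only, and binding was not measured.

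All 40 members passed the filter on low counts and were tested, the lowest count of any member in any library being 29. GUCY2Chi and GUCY2Cmed cells differed in 4 of them at an edgeR adjusted p under 0.01. Atf6 and Sec62 were higher in GUCY2Chi cells, where 13.9% of the 15703 genes tested were higher. P4hb and Edem1 were lower, as were 8.79% of all genes tested. In either direction 10.0% of the members and 22.7% of all genes passed the threshold. The median log2 fold change of the members was 0.11 and that of all genes 0.09. Above 0 were 28 of 40 members and 8575 of the 15703 genes tested. Of the 36 members short of the threshold, 5 had an unadjusted p under 0.05 (Srp14, Spcs3, Ern1, Creb3l1 and Creb3l2). Counting those past the threshold, 9 of 40 members had an edgeR unadjusted p under 0.05, beside 7460 of the 15703 genes tested. The 95% interval of the log2 fold change lay inside −1 to 1 for 28 members (70.0%) and for 29.6% of all genes, a share not matched for expression level. For those 28 members a 2-fold difference lay outside the interval. The levels of 3 members in every GUCY2Chi library were above those in every GUCY2Cmed library (Atf6, Sec62 and Spcs3), as for 16.7% of all genes. P4hb and Edem1 were below in every library, as were 13.2% of all genes. With the mouse as a block, 1 member was higher (Atf6) and 2 lower (P4hb and Edem1), beside 1294 and 779 of all genes. Without GUCY2Chi libraries 12 and 15, 5 were higher (Atf6, Creb3l1, Ern1, Sec62 and Spcs3) and 2 lower (P4hb and Edem1), beside 2711 and 2186 of all genes. Library size in place of TMM factors gave 5 higher (Atf6, Ern1, Sec62, Spcs3 and Srp14) and 0 lower, beside 2909 and 560 of all genes, whose median it moved from 0.09 to 0.39.

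**Figure D1:**
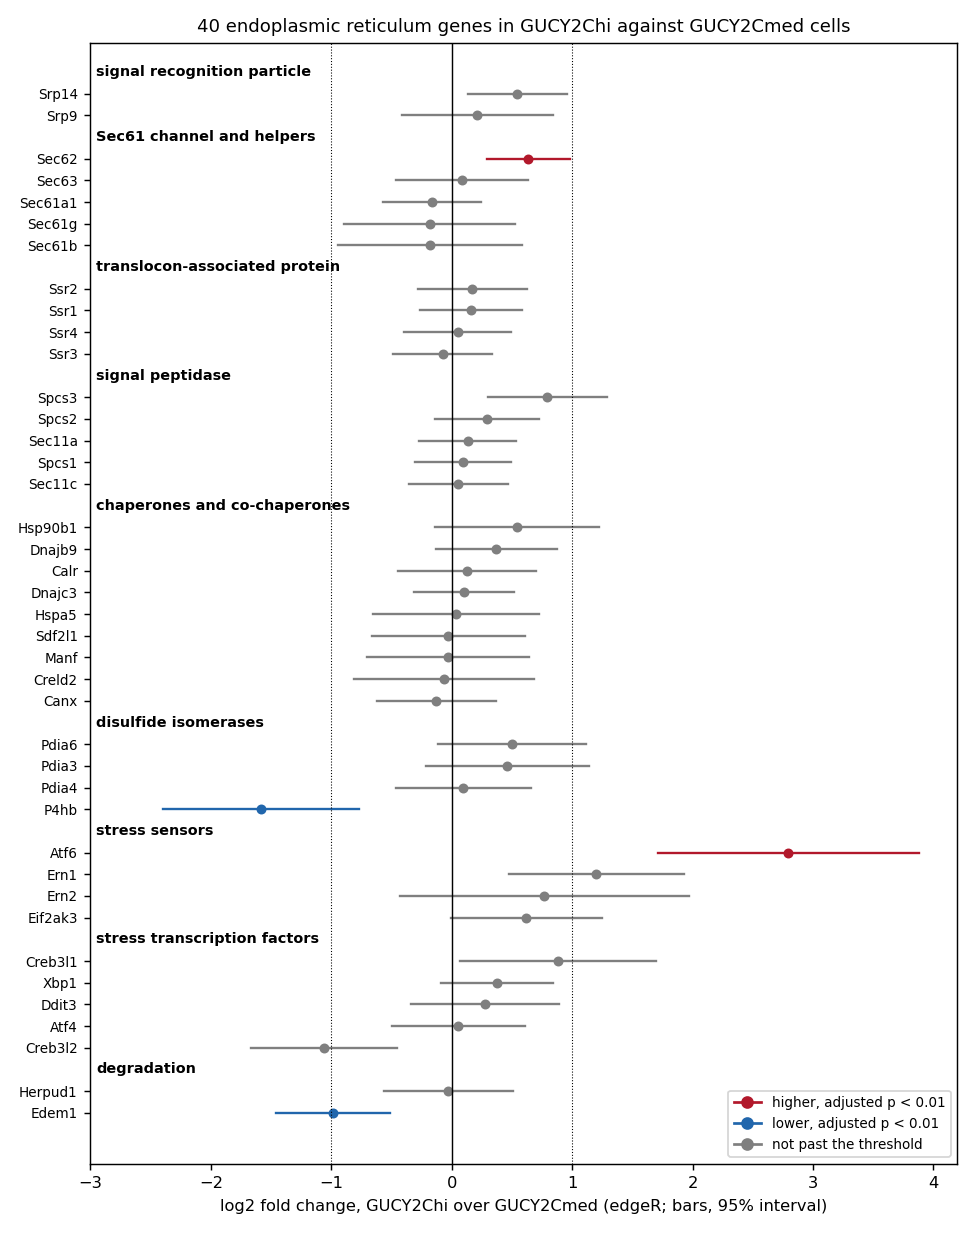
Log2 fold change of each of the 40 members in GUCY2Chi over GUCY2Cmed cells (x axis, points) with its 95% interval (bars), grouped by role, with dotted lines at 2-fold. Atf6 stands highest at 2.79 and P4hb lowest at −1.58, and 36 points lie within 2-fold.

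Of the 5 genes of the Sec61 channel and its helpers, 1 was higher in GUCY2Chi cells and 4 did not pass the threshold. Sec62, a membrane protein that with Sec63 assists the Sec61 channel and also serves as a receptor for ER turnover, was 74.1, 67.3, 50.8, 76.6 and 53.1 cpm in the GUCY2Chi libraries and 44.7, 40.9, 36.1, 45.4 and 40.02 cpm in the GUCY2Cmed libraries. No library of one group reached into the other, so the level was higher in GUCY2Chi cells in 5 of 5 mice under any pairing. It was 1.55-fold higher on average, and the log2 fold change was 0.64 (SE 0.16, edgeR adjusted p = 0.00854). Blocking on the mouse gave an adjusted p of 0.0140, above the 0.01 threshold, and no low-count filter gave 0.0174. Leaving out 1 library at a time gave 0.00342 to 0.0227, under 0.01 only without GUCY2Chi library 12, GUCY2Chi library 15 or GUCY2Cmed library 2. GUCY2Chi libraries 12 and 15 were the lowest of their group for Sec62, and without both the log2 fold change was 0.84 (edgeR adjusted p = 0.000546). Sec63, its partner, had a log2 fold change of 0.09 (95% interval −0.46 to 0.63).

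The channel subunits Sec61a1, Sec61b and Sec61g had log2 fold changes of −0.16, −0.18 and −0.18, none past the threshold. Levels of the pore subunit Sec61a1 were 239.5, 178, 247, 227 and 187 cpm in GUCY2Chi and 189.9, 232, 221, 236 and 327 cpm in GUCY2Cmed libraries, and the groups overlapped. The small subunits Sec61b and Sec61g were both at their highest in GUCY2Chi library 12 and GUCY2Cmed library 12. For Sec61b those libraries had 119.9 and 121 cpm, against 35.7 to 80.0 cpm in the other 8. The 4 translocon-associated proteins Ssr1 to Ssr4, which sit beside the channel and help some chains enter, ranged from −0.08 (Ssr3) to 0.17 (Ssr2), and all 4 intervals lay inside −1 to 1.

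Of the signal recognition particle, Srp14 was 138, 159, 199, 174 and 194 cpm in GUCY2Chi and 103, 92.9, 158, 135 and 104 cpm in GUCY2Cmed libraries, higher by number in 5 of 5 mice. Its log2 fold change of 0.55 (SE 0.19) missed the threshold, with an edgeR adjusted p of 0.0372. Srp9, which pairs with Srp14 in the Alu domain of the particle, had 0.21 (adjusted p = 0.610) and one high library, GUCY2Chi 15 at 87.1 cpm.

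Signal peptidase genes had log2 fold changes above 0 for 5 of 5 subunits, and 0 of 5 passed the threshold. Spcs3, an accessory subunit needed for cleavage, came nearest, with 166, 130.2, 165, 216 and 114 cpm in GUCY2Chi and 54.7, 96.5, 103, 94.7 and 108 cpm in GUCY2Cmed libraries. The groups did not overlap, yet the log2 fold change of 0.80 (SE 0.23) had an edgeR adjusted p of 0.0163. Without GUCY2Chi library 15 it was 0.00712, and without GUCY2Chi libraries 12 and 15 it was 0.00936. With the mouse as a block the edgeR adjusted p was 0.0410. Spcs3 passed in only 1 of 10 fits with 1 library left out. The other accessory subunits Spcs1 (overlapped by Glt8d1 on the opposite strand, with 6.72% of its counts) and Spcs2 stood at 0.09 and 0.29, and the catalytic subunits Sec11a and Sec11c at 0.13 and 0.05. Sec11c and Sec11a are alternative catalytic subunits, and their log2 ratio within a library was −0.85 ± 0.29 in GUCY2Chi and −0.79 ± 0.26 in GUCY2Cmed cells (mean ± SD, n = 5, exact permutation p = 0.643).

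**Figure D2:**
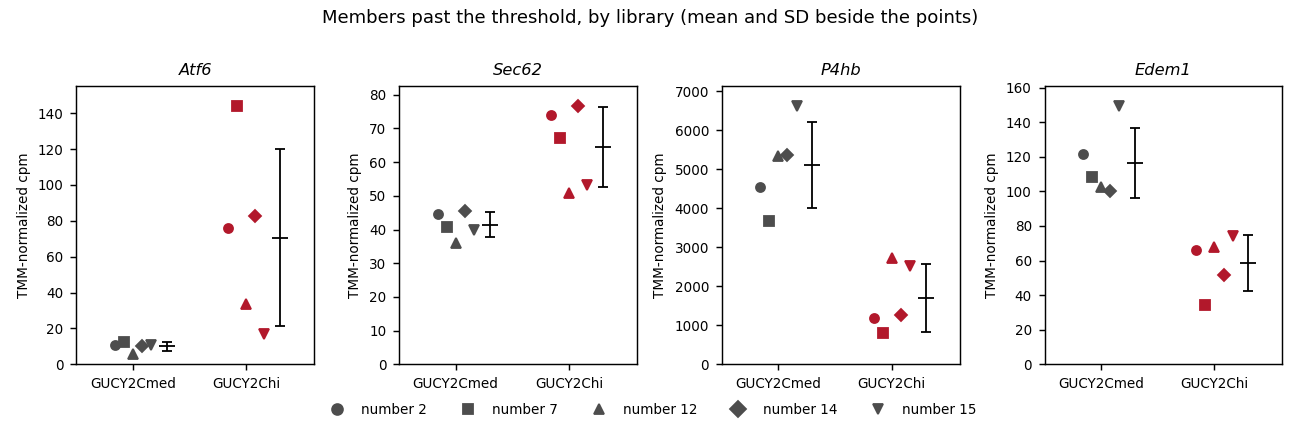
TMM-normalized cpm (y axis, from 0) of Atf6, Sec62, P4hb and Edem1 in the 5 GUCY2Cmed and 5 GUCY2Chi libraries, one point per library with its number as the symbol, and the mean with SD beside the points. The groups do not overlap for any of the 4, and for each of them GUCY2Chi libraries 12 and 15 lie nearest to the GUCY2Cmed libraries.

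None of the 9 chaperones and co-chaperones passed the threshold, and their median log2 fold change was 0.04. Hspa5 (BiP), the main Hsp70 of the ER and the usual gauge of ER stress, was 1467, 1394, 1686, 1389 and 1156 cpm in GUCY2Chi and 613, 1949.8, 1536, 944 and 1867 cpm in GUCY2Cmed libraries. The GUCY2Chi values lay within the range of the GUCY2Cmed values. For Hspa5 the log2 fold change was 0.04 (SE 0.32, edgeR adjusted p = 0.949), with a 95% interval of −0.65 to 0.73. Hsp90b1 (GRP94), the Hsp90 of the ER, was 564 ± 185 cpm in GUCY2Chi cells and 387 ± 145 cpm in GUCY2Cmed cells (mean ± SD, n = 5 each), and its 0.54 had an adjusted p of 0.193. Without GUCY2Chi libraries 12 and 15, its adjusted p was 0.0263. The lectin chaperones Calr and Canx, which hold glycoproteins during folding, stood at 0.13 and −0.13, with Calr at 1304 ± 348 cpm in GUCY2Chi cells and 1194 ± 306 cpm in GUCY2Cmed cells (mean ± SD, n = 5 each).

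The co-chaperones of BiP and the stress-induced secretory proteins did not pass either. Dnajb9 (ERdj4), a J protein that is among the most responsive to IRE1 and XBP1, was 33.3, 40.2, 53.5, 41.8 and 46.2 cpm in GUCY2Chi and 24.5, 23.5, 37.6, 29.9 and 50.9 cpm in GUCY2Cmed libraries, a log2 fold change of 0.37 (edgeR adjusted p = 0.230). Dnajc3 (p58IPK), a J protein that also restrains PERK, had 0.10 and Sdf2l1, which works with J proteins, −0.03. The secretory proteins Manf and Creld2 had −0.03 and −0.06. Creld2 was 117, 118, 165, 119 and 128 cpm in GUCY2Chi and 44.99, 188, 165, 87.01 and 192 cpm in GUCY2Cmed libraries. Its GUCY2Cmed values spanned 4.27-fold from library 2 to library 15, the widest span of any chaperone in either group.

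The 8 members with an ERSE or ERSE-II match (Hspa5, Hsp90b1, Calr, Canx, Pdia6, Dnajc3, Creld2 and Herpud1) included 0 past the threshold. Their log2 fold changes ran from −0.13 to 0.54 with a median of 0.07, beside 0.11 for the other 24 members with a window, of which 3 passed. In either direction 22.7% of all genes tested passed, and no difference between the 8 and the 24 was tested. Within the GUCY2Cmed group, the highest library exceeded the lowest by a median of 2.41-fold for the 8 genes and 1.82-fold for the 24. Library 2 held the lowest GUCY2Cmed value for 7 of the 8 genes and for 11 of the 24, and library 7 the highest for 5 of the 8 and 8 of the 24. In GUCY2Chi cells the corresponding medians were 1.56-fold and 1.73-fold, and library 15 held the lowest value for 5 of the 8 and 9 of the 24. Over all 40 members, GUCY2Cmed library 2 was the lowest of its group for 23 and GUCY2Chi library 15 for 18, while GUCY2Cmed library 7 was the highest for 17 and GUCY2Chi library 12 for 16. Such counts of lowest and highest libraries were not made over all genes tested, so they are not shown to be particular to the members. Markers of dissociation and heat shock, a list with Fos and Hspa1a, summed to 5500 cpm in GUCY2Cmed library 7 and 9866 cpm in GUCY2Chi library 7, against 1303 to 2645 cpm in the other 8 libraries, and its part in these levels was not tested. GUCY2Cmed library 2 also had the lowest total of counts, 10903958.

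**Figure D3:**
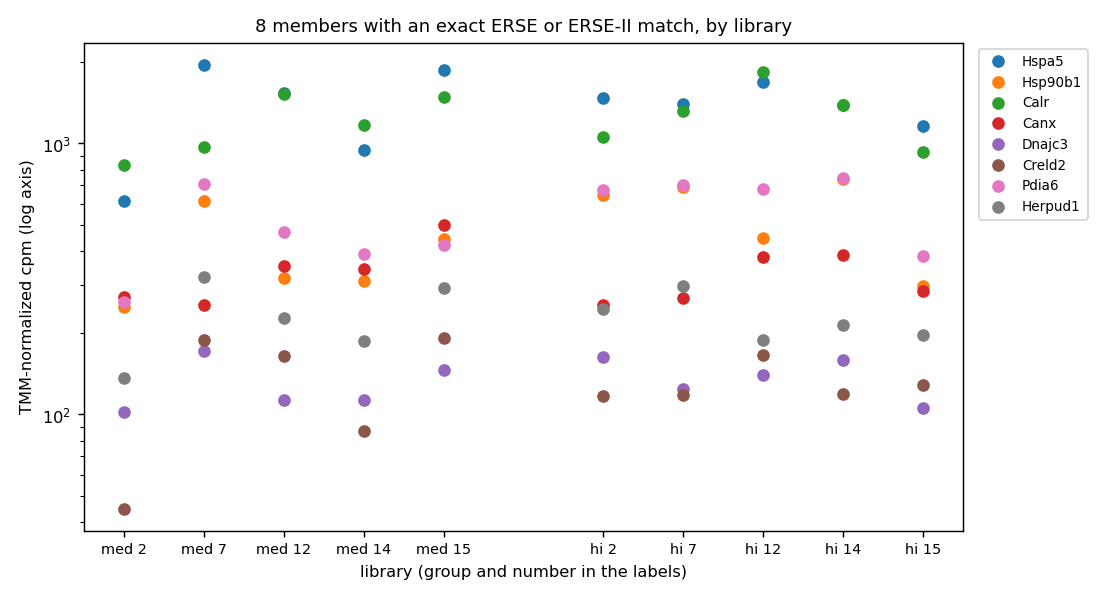
TMM-normalized cpm (log axis) of the 8 members with an ERSE or ERSE-II match in each of the 10 libraries, one color per gene. GUCY2Cmed library 2 holds the lowest GUCY2Cmed point for 7 of the 8 genes, with a median span of 2.41-fold in that group and 1.56-fold in GUCY2Chi cells. The share of all genes with their lowest value in that library was not computed.

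Of the 4 disulfide isomerases, 1 was lower in GUCY2Chi cells and 3 did not pass the threshold. P4hb (protein disulfide isomerase, PDI), which forms and shuffles disulfide bonds and is also a subunit of prolyl 4-hydroxylase and of the microsomal triglyceride transfer protein, was 1187, 817, 2738, 1264 and 2525 cpm in the GUCY2Chi libraries. In the GUCY2Cmed libraries it was 4556, 3667, 5354, 5359 and 6619 cpm, and the groups did not overlap. P4hb was 3.00-fold lower in GUCY2Chi cells and, without overlap, lower in 5 of 5 mice under any pairing. The log2 fold change was −1.58 (SE 0.37, edgeR adjusted p = 0.00654). The GUCY2Chi values of libraries 12 and 15 were the nearest to the GUCY2Cmed range, and these are the 2 GUCY2Chi libraries with the highest enterocyte marker sums. Without both, the log2 fold change was −2.21 and the edgeR adjusted p 0.000119. Mttp, the large subunit of the transfer protein and an enterocyte marker, was 129, 97.4, 743, 117 and 866 cpm in GUCY2Chi and 2231, 1696, 1919, 2301 and 2811 cpm in GUCY2Cmed libraries. Its log2 fold change of −2.49 (SE 0.64) had an adjusted p of 0.0101, short of the threshold. The part of enterocyte RNA in the level of P4hb was not tested. Leaving out 1 library at a time gave adjusted p-values of 0.00405 to 0.0258 for P4hb, under 0.01 only without GUCY2Chi library 12, GUCY2Chi library 15 or GUCY2Cmed library 7. With library size in place of TMM factors it was 0.0101.

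The other isomerases did not pass. Pdia3 (ERp57), which works with calreticulin and calnexin on glycoproteins, was 1721, 1387, 1316, 1979.8 and 707 cpm in GUCY2Chi and 755, 1613, 882, 923 and 996 cpm in GUCY2Cmed libraries, a log2 fold change of 0.46 (edgeR adjusted p = 0.270). Pdia6 stood at 0.50 (adjusted p = 0.181) and Pdia4 at 0.10 (adjusted p = 0.818). GUCY2Chi library 15 had the lowest GUCY2Chi value for all 3 of these genes and the second highest for P4hb.

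Levels of different genes were compared per length, on the FPKM scale. The lengths that the deposited FPKM imply were an uneven part of the gene length. They were 1157 of 3139 bases for Pdia3, 1175 of 2880 for Calr, 1348 of 2861 for P4hb and 1418 of 4229 for Hspa5. The order of genes rests on these lengths. P4hb had the highest median FPKM of the 40 members in GUCY2Cmed cells, 3563 (range 2562 to 4033), and the fourth highest in GUCY2Chi cells, 969 (range 762 to 2231). Pdia3 took the first place in GUCY2Chi cells with a median FPKM of 1509 (range 728 to 1697), ahead of Calr at 1170.1 and Hspa5 at 1139, and these 4 ranges overlapped. The ratio of P4hb to Pdia3 within a library, which no scaling of libraries alters, was 0.592, 0.505, 1.79, 0.548 and 3.06 in GUCY2Chi cells and 5.18, 1.95, 5.21, 4.98 and 5.70 in GUCY2Cmed cells. P4hb thus exceeded Pdia3 in 5 of 5 GUCY2Cmed libraries and in GUCY2Chi libraries 12 and 15. In summed cpm, P4hb made up 35.5% of the 40 members in GUCY2Cmed and 13.8% in GUCY2Chi cells. The sum over the other 39 members was 8134 to 12050 cpm in GUCY2Chi and 6177 to 11124 cpm in GUCY2Cmed libraries. The least abundant members per length in GUCY2Chi cells were Ern1, Ern2, Creb3l2, Creb3l1 and Eif2ak3, with median FPKM of 2.40 to 7.01.

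Among the sensors, Atf6 was higher in GUCY2Chi cells and the other 3 did not pass the threshold, although all 4 log2 fold changes were above 0 (median 0.98). Atf6, which lies at chr1:170704674-170867771 on the minus strand (GRCm38), was 76.3, 144, 33.6, 82.8 and 16.8 cpm in the GUCY2Chi libraries. The GUCY2Cmed libraries had 10.9, 12.7, 6.05, 10.3 and 11.03 cpm, below every GUCY2Chi library. Atf6 was 6.93-fold higher in GUCY2Chi cells and, without overlap, higher in 5 of 5 mice under any pairing. The log2 fold change was 2.79 (SE 0.49, edgeR adjusted p = 0.00148), with a 95% interval of 1.71 to 3.88. GUCY2Chi libraries 12 and 15 were the lowest of their group. Without both, the log2 fold change was 3.35 (adjusted p = 1.22e-05). The call held in 10 of 10 fits that left out 1 library, with edgeR adjusted p-values of 0.000162 to 0.00523, and with the mouse as a block (0.00665). Per length, the median FPKM of Atf6 was 17.6 in GUCY2Chi and 1.97 in GUCY2Cmed cells, ranks 35 and 39 of the 40 members, so this sensor stayed among the less abundant members in both.

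Ern1 (IRE1α), the kinase and RNase that splices Xbp1, was 5.24, 7.41, 6.58, 10.4 and 3.02 cpm in GUCY2Chi and 3.37, 2.57, 2.09, 2.93 and 3.25 cpm in GUCY2Cmed libraries, with only GUCY2Chi library 15 inside the GUCY2Cmed range. Its log2 fold change of 1.20 (SE 0.33, 95% interval 0.47 to 1.93) missed the threshold, with an edgeR adjusted p of 0.0146. Without GUCY2Chi library 15 the adjusted p was 0.00252, and with the mouse as a block it was 0.0552. Ern2 (IRE1β), the form restricted to mucosal epithelium and prominent in goblet cells, was 38.3, 16.9, 8.32, 7.09 and 4.59 cpm in GUCY2Chi and 10.5, 14.999, 4.75, 5.63 and 8.29 cpm in GUCY2Cmed libraries. The groups overlapped, and the log2 fold change was 0.77 (SE 0.55, edgeR adjusted p = 0.301). GUCY2Chi library 2, the highest for Ern2, also had the highest sums of goblet markers (23555 cpm) and Paneth markers (45577 cpm), whose part in the level of Ern2 was not tested. The log2 ratio of Ern2 over Ern1 was 0.84 ± 1.22 in GUCY2Chi and 1.39 ± 0.59 in GUCY2Cmed cells (mean ± SD, n = 5, exact permutation p = 0.397). Eif2ak3 (PERK), the kinase that phosphorylates eIF2α, was 13.6, 12.7, 9.15, 13.4 and 7.55 cpm in GUCY2Chi and 10.2, 6.98, 3.74, 6.60 and 9.15 cpm in GUCY2Cmed libraries. The ranges overlapped, and the log2 fold change was 0.62 (SE 0.29, edgeR adjusted p = 0.109).

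**Figure D4:**
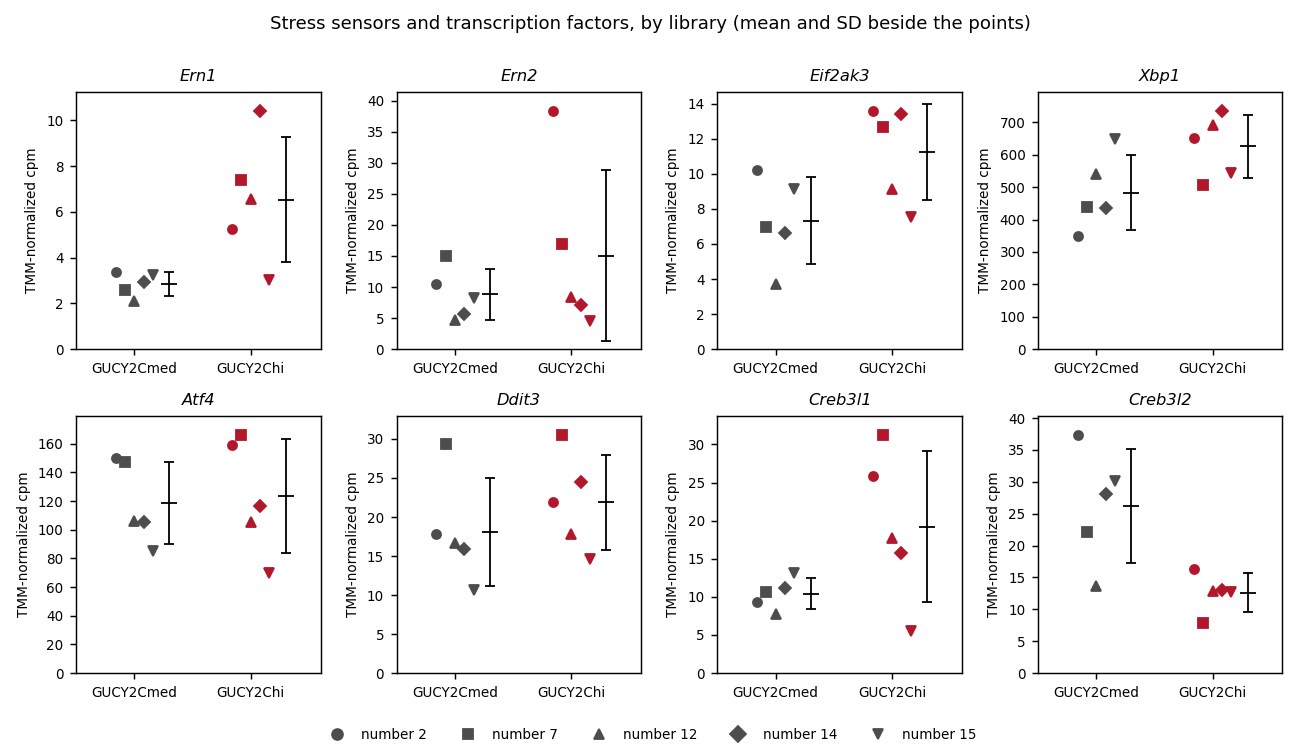
TMM-normalized cpm (y axes, from 0, one scale per gene) of 3 stress sensors and 5 stress transcription factors by library, with symbols for the library numbers and the mean with SD beside the points. The groups overlap for 8 of the 8 genes, and GUCY2Chi library 15 is the lowest GUCY2Chi library for Ern1, Ern2, Eif2ak3, Atf4, Ddit3 and Creb3l1.

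Stress transcription factors included 0 of 5 past the threshold. Xbp1, the target of IRE1 and a regulator of secretory capacity, was 653, 506, 693, 734 and 544 cpm in GUCY2Chi and 348, 439, 541, 435 and 649 cpm in GUCY2Cmed libraries. The ranges overlapped, and the log2 fold change was 0.38 (SE 0.21, edgeR adjusted p = 0.189), with a 95% interval of −0.09 to 0.84. Atf4, whose translation rises when PERK is active, was 159, 166, 105, 117 and 69.8 cpm in GUCY2Chi and 150.2, 147, 106, 105 and 84.996 cpm in GUCY2Cmed libraries. In both groups the levels spread over much the same range, and the log2 fold change was 0.06 (SE 0.25, edgeR adjusted p = 0.900). Ddit3 (CHOP), the factor tied to prolonged stress, was 21.9, 30.5, 17.8, 24.5 and 14.7 cpm in GUCY2Chi and 17.8, 29.4, 16.7, 15.9 and 10.6 cpm in GUCY2Cmed libraries. It was higher by number in 5 of 5 mice, but the log2 fold change was 0.28 (SE 0.28, edgeR adjusted p = 0.482). Ddit3 is overlapped by Mars on the opposite strand, whose counts came to 181% of its own, so its value is uncertain where reads were counted without regard to strand. A second row named Ddit3 had no counts and was not tested.

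Creb3l1 (OASIS) and Creb3l2 (BBF2H7), membrane-bound relatives of ATF6 that are cut in the same way, had log2 fold changes of opposite sign, neither past the threshold. Creb3l1 was 25.9, 31.2, 17.7, 15.8 and 5.54 cpm in GUCY2Chi and 9.35, 10.7, 7.77, 11.1 and 13.2 cpm in GUCY2Cmed libraries. GUCY2Chi library 15 lay below every GUCY2Cmed library, and the log2 fold change was 0.88 (SE 0.37, edgeR adjusted p = 0.0810). Without that library the edgeR adjusted p was 0.00407, and without GUCY2Chi libraries 12 and 15 it was 0.00310. With the mouse as a block it was 0.229 by edgeR and 0.136 by limma-voom. Creb3l1 passed the threshold in only 1 of 10 fits with 1 library left out. Creb3l2 was 16.4, 7.83, 12.9, 13.1 and 12.7 cpm in GUCY2Chi and 37.3, 22.1, 13.6, 28.1 and 30.1 cpm in GUCY2Cmed libraries. It was lower by number in 5 of 5 mice, with GUCY2Cmed library 12 inside the GUCY2Chi range, and the log2 fold change was −1.06 (SE 0.28, edgeR adjusted p = 0.0110). Without GUCY2Cmed library 12 the edgeR adjusted p was 0.00428, and only this 1 of 10 fits with 1 library left out passed. With the mouse as a block it was 0.0170 by edgeR and 0.00946 by limma-voom. Without GUCY2Chi libraries 12 and 15 it was 0.0275 by edgeR. Taken within libraries, the log2 ratio of Creb3l1 over Creb3l2 was 0.64, 1.93, 0.44, 0.26 and −1.13 in GUCY2Chi and −1.94, −1.02, −0.77, −1.30 and −1.16 in GUCY2Cmed libraries. The means differed by 1.67 (exact two-sided permutation p = 0.0238, adjusted p = 0.0714 over the 3 ratios compared), and GUCY2Chi library 15 fell among the GUCY2Cmed values. The smallest p this test could give was 0.00794.

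Of the 2 degradation genes, Edem1 was lower in GUCY2Chi cells and Herpud1 did not pass the threshold. Edem1, a mannosidase-like lectin that delivers misfolded glycoproteins to degradation, was 66.2, 34.2, 67.9, 51.4 and 74.1 cpm in GUCY2Chi and 121, 109, 103, 100.2 and 149 cpm in GUCY2Cmed libraries. The groups did not overlap, so the level was lower in GUCY2Chi cells in 5 of 5 mice under any pairing. It was 1.98-fold lower, and the log2 fold change was −0.99 (SE 0.22, edgeR adjusted p = 0.00470). With the mouse as a block the adjusted p was 0.00808, and leaving out 1 library at a time gave 0.00330 to 0.0188, under 0.01 only without GUCY2Chi library 12 or 15 or GUCY2Cmed library 7 or 14. With library size in place of TMM factors it was 0.0174. GUCY2Chi libraries 12 and 15 were the highest of their group, nearest to the GUCY2Cmed range, and without both the log2 fold change was −1.18 (edgeR adjusted p = 0.00192). Herpud1, which organizes the degradation complex and carries the ERSE-II and CARE matches, was 245, 299, 189, 215 and 196 cpm in GUCY2Chi and 136, 323, 226, 186 and 294 cpm in GUCY2Cmed libraries. The groups overlapped, and its log2 fold change was −0.03 (95% interval −0.57 to 0.51).

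Other genes of the secretory pathway were counted in 7 lists. Of the 188 tested, 16 were higher (8.51%, beside 13.9% of all genes) and 24 lower (12.8%, beside 8.79%) in GUCY2Chi cells. Blocking on the mouse left 10 higher and 10 lower, library size in place of TMM factors gave 39 and 6, and leaving out 1 library gave 11 to 26 and 5 to 23, the most without GUCY2Chi library 15. Of 22 other targeting and insertion genes tested, 1 was lower and 0 higher, with a median log2 fold change of −0.07. The 1 was Emc9, a subunit of the membrane insertase complex EMC, at −1.27 (SE 0.27, edgeR adjusted p = 0.00372), past the threshold in 4 of 10 fits with 1 library left out (without GUCY2Chi library 12 or 15 or GUCY2Cmed library 2 or 7). Of 27 N-glycosylation genes, 2 were higher and 0 lower, with a median of −0.12. With 1 library left out, 1 to 4 were higher, 4 without GUCY2Chi library 15 and 1 without GUCY2Chi library 12 or 14 or GUCY2Cmed library 2 or 14. Tusc3, an oxidoreductase subunit of the oligosaccharyltransferase, was 220.2, 218, 201, 349 and 152 cpm in GUCY2Chi and 33.3, 26.3, 51.1, 35.2 and 34.3 cpm in GUCY2Cmed libraries. That was 6.33-fold higher with no overlap, and the log2 fold change was 2.66 (SE 0.26, edgeR adjusted p = 2.92e-05). Alg2, a mannosyltransferase of the lipid-linked sugar, had 1.10 (adjusted p = 0.00500, and 0.0159 with the mouse as a block).

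Of 34 folding genes outside the members, 6 were higher (17.6%, beside 13.9% of all genes) and 1 lower, with a median of 0.41. With the mouse as a block these counts were 1 and 0, with library size in place of TMM factors 15 and 0, and without GUCY2Chi libraries 12 and 15 they were 11 and 1. With 1 library left out, 2 to 9 were higher, 9 without GUCY2Chi library 15, 4 or 5 without GUCY2Chi library 7 or 12 or GUCY2Cmed library 2, 7 or 15, and 2 or 3 without any of the rest. Fkbp9, a prolyl isomerase of the ER, was 23.8, 16.6, 12.9, 34.1 and 11.01 cpm in GUCY2Chi and 1.87, 3.61, 3.09, 3.98 and 3.25 cpm in GUCY2Cmed libraries, and the log2 fold change was 2.63 (SE 0.35, edgeR adjusted p = 0.000232). The ER oxidases that recharge PDI went opposite ways. Ero1lb was 44.9, 28.3, 38.8, 62.8 and 26.4 cpm in GUCY2Chi and 17.4, 17.4, 14.6, 14.3 and 21.2 cpm in GUCY2Cmed libraries, a log2 fold change of 1.24 (edgeR adjusted p = 0.00273, and 0.0174 with the mouse as a block). Ero1l was 40.2, 29.5, 36.5, 35.1 and 37.2 cpm in GUCY2Chi and 62.7, 76.4, 50.1, 52.7 and 68.1 cpm in GUCY2Cmed libraries, a log2 fold change of −0.80 (edgeR adjusted p = 0.00281, and 0.0148 with the block). Each stood apart without overlap, and so in the same direction in 5 of 5 mice under any pairing.

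In other degradation genes, 1 of 25 was higher and 3 were lower, with a median of −0.11 (1 and 0 with the mouse as a block, and 3 and 0 with library size in place of TMM factors). With 1 library left out, 4 were lower without GUCY2Chi library 15, 1 without GUCY2Chi library 12 and 0 in the other 8 fits. Selenok, a selenoprotein of the degradation complex, rose by 0.95 on the log2 scale (edgeR adjusted p = 0.00105). Ube2j2, a ubiquitin-conjugating enzyme, and Aup1, which recruits such enzymes, had −0.66 and −0.66 (adjusted p = 0.00612 and 0.00711), neither past the threshold with the mouse as a block, and they passed in 2 and 1 of 10 fits with 1 library left out. Of 24 targets of ATF4 and CHOP, 5 were higher (20.8%, beside 13.9% of all genes) and 5 lower (20.8%, beside 8.79%), with a median of 0.82. The mouse as a block and library size in place of TMM factors each gave 6 and 2. With 1 library left out 4 to 7 were higher and 1 to 4 lower, 4 lower without GUCY2Chi library 12 or 15 and 1 to 3 without any other library. Vldlr, a lipoprotein receptor, and Asns, asparagine synthetase, were higher by 2.33 and 1.67, whereas Cebpb, a transcription factor with wider roles, was at −1.83 (edgeR adjusted p = 0.000661, 0.000880 and 0.00127). Of 15 other sensors, proteases and CREB3 family genes, 0 were higher and 1 lower, the heme-regulated kinase Eif2ak1 at −1.03 (adjusted p = 0.00347), past the threshold in 6 of 10 fits with 1 library left out.

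Of 41 genes of vesicle export and retrieval, 13 were lower (31.7%, beside 8.79% of all genes) and 2 higher, with a median of −0.48. The counts depended on the scaling, since library size in place of TMM factors gave 4 lower and 4 higher. Blocking on the mouse gave 6 and 1, and with 1 library left out 2 to 11 genes were lower, 10 and 11 without GUCY2Chi library 12 and 15 and 2 to 8 without any other library. Tfg, which organizes COPII vesicle export, was 186, 126, 230.1, 150.4 and 297 cpm in GUCY2Chi and 748, 647, 437, 575 and 663 cpm in GUCY2Cmed libraries, and the log2 fold change was −1.63 (SE 0.26, edgeR adjusted p = 0.000822). Sec16b, of the COPII exit sites, was 10.9, 11.3, 17.8, 6.55 and 21.2 cpm in GUCY2Chi and 64.7, 54.1, 36.9, 33.5 and 69.7 cpm in GUCY2Cmed libraries, a log2 fold change of −1.93 (edgeR adjusted p = 0.00123). Tmed3, a p24 cargo receptor, moved the other way, with 1.33 (edgeR adjusted p = 0.00102). No difference between the lists was tested, and the enterocyte marker sums given above move with the same groups, their part not tested.

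**Figure D5:**
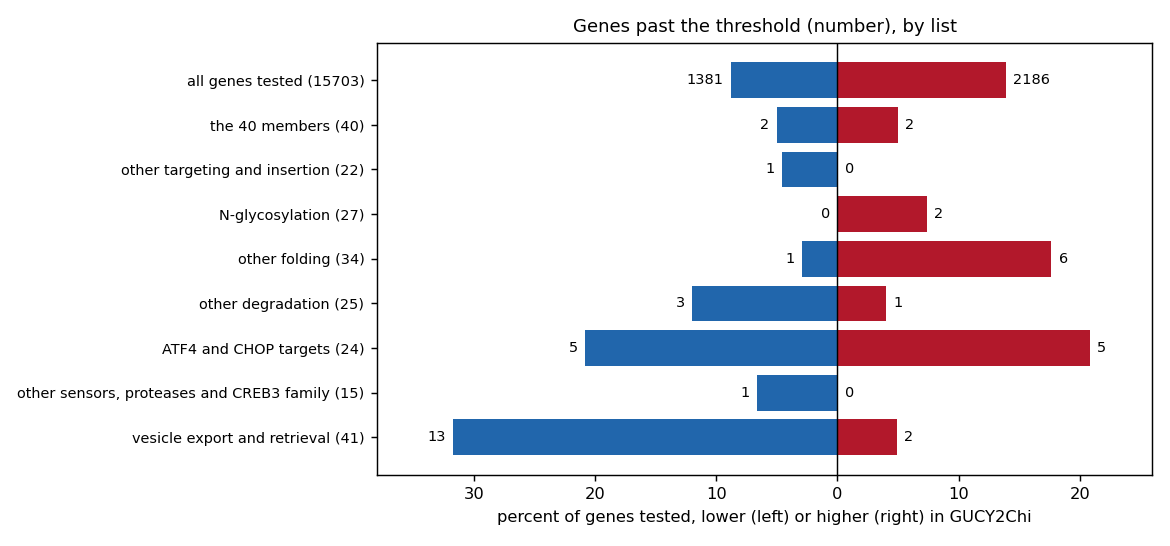
Percent of genes tested that were lower (left, blue) or higher (right, red) in GUCY2Chi cells at an edgeR adjusted p under 0.01, for all genes, the 40 members and 7 other lists of the pathway, with the number of genes tested in parentheses and of genes called at the bars. Vesicle export and retrieval shows 13 lower and 2 higher of 41, and the members 2 and 2 of 40.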

How the data were processed

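RNA of 10 libraries was analysed. Per the labels, RNA was extracted from sorted cells with the RNeasy Micro Plus kit, libraries were made with the NEBNext Ultra II RNA kit, and reads were aligned with STAR to mm9. The deposited read counts per gene are raw whole numbers. The deposited FPKM values are counts divided by a gene length and by library size, and the length they imply was a median of 0.394 of the gene length in the same table. The counter, its annotation and its use of strand are not given in the sources used here. Positions in the table matched GRCm38 for 41 of 41 rows of the members and NCBIM37 for 4, so GRCm38 is given. The authors' 10 columns of normalized values and their columns of log fold changes and p-values (limma 3.40.6 and edgeR 3.26.8 in the submitters' notes) were not used.

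Counts were tested with edgeR 4.0.16 in R 4.3.3, by the quasi-likelihood test with TMM factors (0.821 to 1.26) over the 15703 of 54532 genes above 0.5 cpm in at least 3 libraries, all 10 libraries together and no covariate. Calls are at a Benjamini-Hochberg adjusted p under 0.01 over all genes tested. The biological coefficient of variation was 0.458. Each p-value of this fit rests on the spread between the libraries of a group, and leaves out that each mouse gave both groups. The pairing enters only where the mouse is a block. Ratios were tested by exact two-sided permutation on log2(cpm + 0.5). Alternatives were limma-voom (limma 3.58.1), DESeq2 1.42.0, the mouse as a block, other scalings and filters, and leaving out libraries. The labels state that 5 mice were sorted into both groups, so equal numbers were taken as the same mouse. The deviations of same-numbered libraries correlated by −0.22 to 0.27, and 1 of 5 pairs correlated best with its own number. On data simulated for GUCY2Chi against GUCY2Cmed with 15703 genes, edgeR called 3 of 100 genes changed 2-fold and 78 of 100 changed 4-fold, with 1 unchanged gene. The changed genes were drawn at random above 1 cpm and not matched to the members in level or spread, so these rates are not those of the members. At 13090212 to 13520800 counts in GUCY2Chi and 10903958 to 15307932 in GUCY2Cmed libraries, 1 read was worth at most 0.0935 cpm. Of the members, 19 overlap another gene, of which Mars (over Ddit3, 181% of its counts) and Glt8d1 (over Spcs1, 6.72%) exceeded 5%.

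Members and lists were chosen with earlier results of these data known. Full statistics are given for members past the threshold and for Hspa5 and the sensors and stress factors, and in each further list for up to 3 genes with the smallest adjusted p among those past the threshold with at least 1 cpm on average. Other members are given by values where they describe a role. Promoter windows are from RefSeq (GRCm38.p6), and starts are those of RefSeq. Figures were drawn with matplotlib 3.10.9 in Python 3.11.15 (pandas 2.3.3, numpy 2.4.6, scipy 1.17.1).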

Additional observations from a re-analysis of the deposited data

Results flagged for a closer look

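In 6 of 86 groups of 5 libraries checked (40 members and 3 ratios in each group), 1 library stood far from the other 4, a gap that chance gives in about 1 of 20 groups. Sec61b in GUCY2Cmed library 12 was 121 cpm, above 53.6 to 71.7 cpm in the others. Spcs3 in GUCY2Cmed library 2 was 54.7 cpm, below 94.7 to 108 cpm. Creld2 in GUCY2Chi library 12 was 165 cpm, above 117 to 128 cpm. Pdia3 in GUCY2Cmed library 7 was 1613 cpm, above 755 to 996 cpm. Pdia6 in GUCY2Chi library 15 was 385 cpm, below 674 to 748 cpm. The log2 ratio of Sec11c over Sec11a in GUCY2Cmed library 15 was −1.23, below −0.76 to −0.58.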

How the results depend on the processing

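The members called higher, 2 in the analysis reported, were 4 by DESeq2 (with Ern1 and Spcs3), 5 with library size in place of TMM, 1 without a low-count filter (Sec62 lost), 4 with at least 10 counts in every library, 5 at an adjusted p under 0.05, and 1 to 5 with 1 library left out. Members called lower, also 2, were 0 with library size alone, 1 with at least 10 counts in every library (P4hb lost), and 0 to 2 with 1 library left out. They were 0 without GUCY2Chi 2, 7 or 14 or GUCY2Cmed 2 or 15. Atf6 was called in all of these fits. With the mouse as a replicate block, 1 member was higher by edgeR and 1 by limma-voom, Sec62 being the one lost, all genes were 1294 higher and 779 lower in place of 2186 and 1381, and the other pathway genes 10 and 10 in place of 16 and 24. Leaving out GUCY2Chi libraries 12 and 15 was added after seeing the data: 5 members were higher, all genes lower were 2186, and other pathway genes higher 31. Leaving out all 4 libraries numbered 12 and 15, also added, left 1 member lower (P4hb). All genes higher were 3367 at adjusted p under 0.05 and 1637 to 2534 with 1 library left out. All genes lower were 2235 by DESeq2, 560 with library size alone, 2767 at 0.05 and 512 to 1609 with 1 library left out. Other pathway genes higher were 27 by DESeq2, 39 with library size alone, 26 with at least 10 counts, 33 at 0.05 and 11 to 26 with 1 library left out. Those lower were 6, 13, 42 and 5 to 23 for library size alone, at least 10 counts, 0.05 and 1 library left out. The causes were not tested. The median of the members was 0.08 to 0.22 with 1 library left out. The log2 ratio differences were −0.17 to 0.0583 for Sec11c over Sec11a, −1.02 to −0.20 for Ern2 over Ern1 and 1.29 to 2.06 for Creb3l1 over Creb3l2, the last at an adjusted p of 0.0476 without GUCY2Chi 15 (0.0476 to 0.143 over its unblocked alternatives). A block permutation of 5 mice cannot go below 0.0625 and tells nothing here.

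Scaling by library size alone moved the median of all genes from 0.09 to 0.39, so changes near 0 turned sign. Of 840 fits of members under 21 alternatives, 717 kept direction and side of the threshold and 80 turned sign, in 18 members whose log2 fold change was at most 0.21 in size, 0 of them past the threshold. With library size alone these were Sec61a1 0.12, Sec61b 0.0806, Sec61g 0.0883, Ssr3 0.21, Canx 0.15, Creld2 0.23, Manf 0.25, Sdf2l1 0.25 and Herpud1 0.28. By limma-voom they were Creld2 0.12, Manf 0.0751, Sdf2l1 0.0788 and Herpud1 0.0182, with the replicate block Creld2 0.11, Manf 0.0594, Sdf2l1 0.0689 and Herpud1 0.0157 by edgeR and Creld2 0.13, Manf 0.0832, Sdf2l1 0.0861 and Herpud1 0.0259 by limma-voom, and with at least 10 counts Ssr3 0.0499, Creld2 0.0729, Manf 0.0958, Sdf2l1 0.10 and Herpud1 0.11. Without GUCY2Chi libraries 12 and 15 they were Srp9 −0.16, Ssr4 −0.0491, Sec11c −0.0678, Spcs1 −0.00399 and Herpud1 0.15, and without all 4 libraries Srp9 −0.19, Ssr3 0.0346, Sec11c −0.096, Canx 0.0568, Creld2 0.15, Manf 0.14, Sdf2l1 0.11 and Herpud1 0.24. With 1 library left out the ranges were Srp9 −0.0615 to 0.37, Sec61b −0.51 to 0.12, Sec61g −0.52 to 0.0318, Sec63 −0.00567 to 0.24, Ssr3 −0.13 to 0.0779, Ssr4 −0.0831 to 0.21, Sec11c −0.0307 to 0.18, Calr −0.0241 to 0.28, Canx −0.22 to 0.054, Creld2 −0.24 to 0.11, Hspa5 −0.11 to 0.19, Manf −0.19 to 0.15, Sdf2l1 −0.18 to 0.15, Pdia4 −0.0386 to 0.25, Atf4 −0.0576 to 0.24 and Herpud1 −0.13 to 0.12. A member short of the threshold is not shown to be equal in both groups beyond its interval.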
